A study of Mus musculus with 6 samples.

Results

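The 41 genes described here carry the liver's traffic in glucose: the transporters that let it in and out, the enzymes of glycolysis and gluconeogenesis, the kinases that steer both routes, and the enzymes and targeting subunits of glycogen storage. They were picked by gene symbol from a hand-written list of this pathway, and all 41 were among the 24063 genes of the count table. Of these, 40 had enough counts to be tested, and Fbp2 did not. In liver tumors of Nr2e3-/- mice, no member of the pathway passed the test at an adjusted p under 0.05. At an unadjusted p under 0.05 and without overlap between the genotypes, Gpi1 and the kinases Pfkfb2 and Pfkfb3 were higher, and the muscle-type phosphofructokinase Pfkm, Gapdh, whose counts are uncertain, the liver glycogen synthase Gys2 and the coactivator Ppargc1a were lower. Of these, Ppargc1a had the highest p and lost it when single libraries were left out. The groups of Pfkfb2 overlapped under another normalization.

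The samples are 6 libraries, 1 from each of 3 WT and 3 Nr2e3-/- liver tumors of male mice on the C57BL/6 background, made to ask what the loss of Nr2e3, an orphan nuclear receptor, does to gene expression in tumors. All 6 mice had received the liver carcinogen diethylnitrosamine (DEN, 25 mg per kg at 15 days of age), and by the study's description the tumors came from the 24-week time point. The Nr2e3-/- mice are a germline knockout, so every cell of the tumor and of the host carried the deletion. Non-tumor liver and mice without DEN were not analysed here, and whether the mice were fed or fasted at collection, which sets the level of many of these genes, is not given in the sources used here.

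Glycolysis splits glucose into pyruvate and lactate, and gluconeogenesis, which in the body belongs mainly to hepatocytes, runs the same route backwards with its own enzymes at the irreversible steps. Hepatocytes use a distinct set of isoforms for this work, among them the transporter Slc2a2, the pyruvate kinase of the Pklr gene and the liver enzymes of glycogen synthesis and breakdown, whereas many tumors switch toward Slc2a1, Hk2 and Pkm. The pathway answers quickly to insulin, glucagon and feeding, in part through fructose-2,6-bisphosphate, which the Pfkfb enzymes make and remove.

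Total counts were between 15376261 and 28690279 per library, and the 41 genes took between 0.610 and 0.881% of them. Nr2e3 itself had 0 counts in all 6 libraries, and it gave no check of the genotypes. The 9 hepatocyte markers found in the table summed to between 133266 and 168758 CPM (counts scaled to a common library size, adjusted by TMM), without separation of the groups. Skeletal muscle markers summed to less than 1 CPM in every library, between 0.507 and 0.861, with Mb and Tnnt3 at 0 throughout. Nr2e3-/- replicate 1, the shallowest library, correlated better with the WT libraries (Pearson's r of log2 CPM across genes between 0.973 and 0.981) than with Nr2e3-/- replicate 2 (0.952) or 3 (0.972), and the fit without it is given below for the members and, as counts, for the wider gene lists. Since these are bulk tumors, fewer cells of a type and less RNA per cell cannot be told apart.

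Ranked by CPM per kilobase of exon, a rough correction for gene length, the liver isoforms and the enzymes of gluconeogenesis led. The length takes in every annotated exon of a gene, which can be well above that of a single transcript. The order is therefore approximate. Pck1, the committed enzyme of gluconeogenesis, stood at the top with 482 ± 229 CPM per kilobase in WT and 634 ± 210 in Nr2e3-/- tumors (SD, n = 3 each), followed by Fbp1, the fructose-bisphosphatase of liver, with 432 ± 44.3 and 491 ± 45.3. The spread of Pck1 was so wide that these neighbours in the order did not separate. Below them came Ldha (138 ± 19.1 and 181 ± 37.0), Gys2 (146 ± 22.9 and 104 ± 4.62), the pyruvate carboxylase Pcx (109 ± 5.23 and 124 ± 11.4) and Pklr (113 ± 8.12 and 88.5 ± 15), whose order changed with the genotype. In WT, Gys2 and Ldha differed by less than their SD on this length, and so did Pklr and Pcx. For Ldha the exons span 3310 bases, but its longest coding transcript holds only 1766 windows of 50 bases. For Gys2 the values are 2657 and 2608, so the order of Ldha and Gys2 depends on the length used. Tumor-type isoforms sat far lower: Pkm at 3.26 ± 0.356 and 3.57 ± 0.792, Slc2a1 at 2.26 ± 0.152 and 2.44 ± 0.826, and Hk2 at 0.470 ± 0.0561 and 0.608 ± 0.253 CPM per kilobase. Fbp2, the muscle fructose-bisphosphatase, was the lowest of all at 0.113 ± 0.0369 and 0.349 ± 0.111.

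In the comparison of all 6 libraries, the share of members past the test was close to that of all genes. With edgeR's quasi-likelihood test over 13572 genes, 0 of 40 members had a Benjamini-Hochberg adjusted p under 0.05, where 13 genes in all (0.0958%) did. At an unadjusted p under 0.05, 8 members (20%) passed, near the 21.5% of all genes tested. Of these, 3 were higher (7.5%, against 11.8% of all genes) and 5 lower (12.5%, against 9.72%) in Nr2e3-/- tumors. Complete separation of the 3 WT from the 3 Nr2e3-/- libraries was seen for 8 members (20%, against 26.8% of all genes), 4 of them higher (13.9% of all genes were) and 4 lower (12.9% of all genes were). The median log2 fold change of the members, Nr2e3-/- over WT, was 0.12, and that of all genes 0.01. DESeq2 called 4 of 41 members (9.76%) at an adjusted p under 0.05, namely Gpi1, Pfkfb3, Pfkm and Gys2, against 5.81% of all genes, and limma-voom with sample quality weights called 6 of 40 (15%), adding Pfkfb2 and Pklr, against 17.4%. The DESeq2 share is of 18808 genes, which include low-count genes that the edgeR filter removes. It is therefore not a like background for the members, nearly all of which passed that filter. For any 1 gene, the smallest p that 3 libraries against 3 allow in an exact two-sided permutation test is 0.1.

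**Figure D1:**
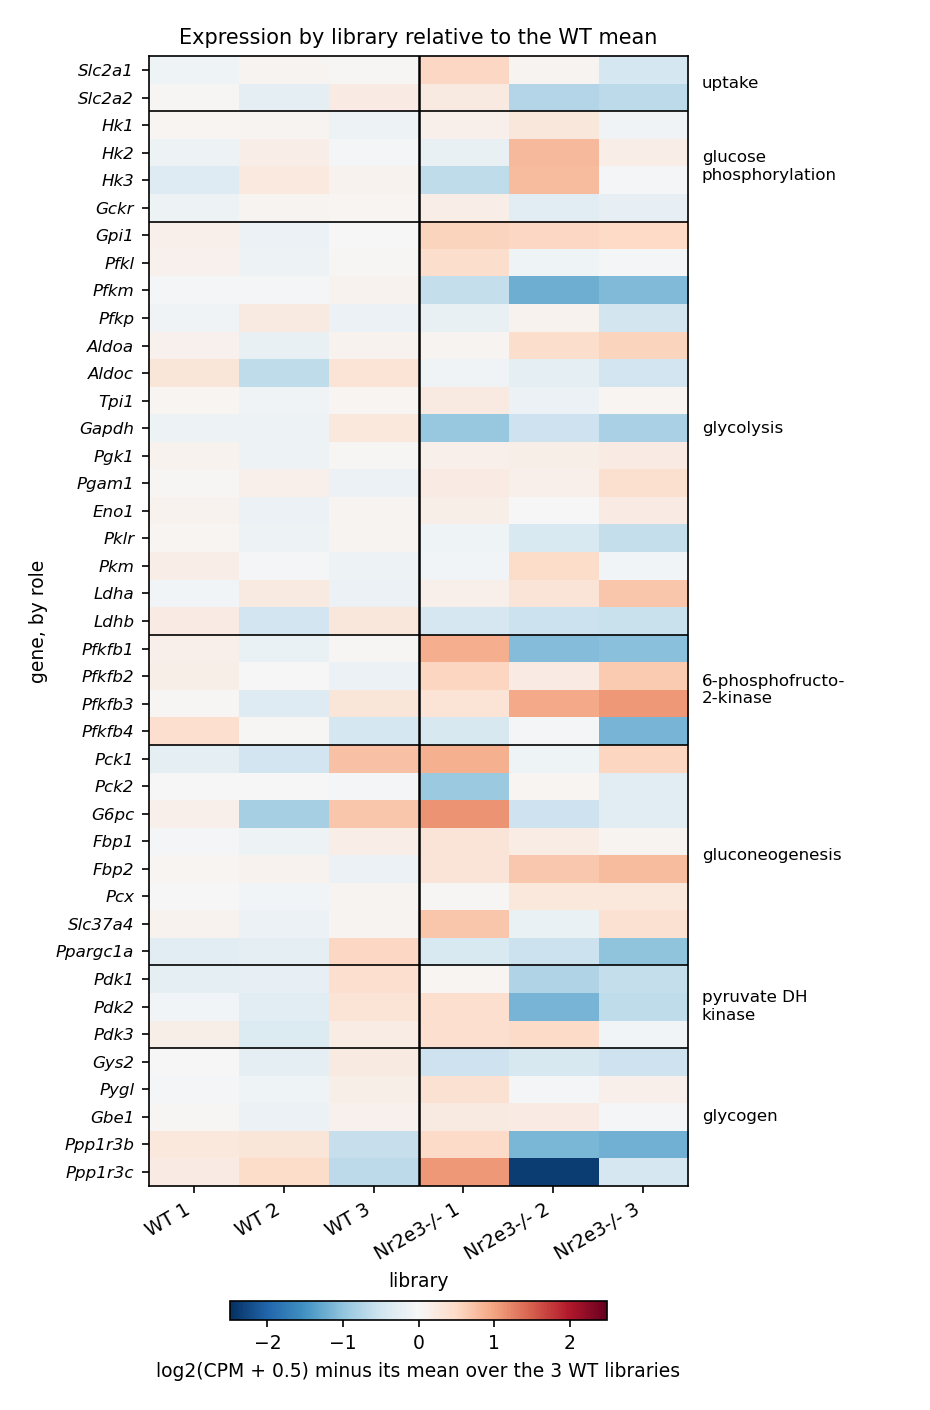
Each row is a gene, grouped by role, and each column a library; colour gives log2(CPM + 0.5) minus the mean of the 3 WT libraries, red above and blue below it. Gpi1, Pfkfb2 and Pfkfb3 are red in all 3 Nr2e3-/- columns and Pfkm, Gapdh, Gys2 and Ppargc1a are blue, while for Slc2a2, Pfkfb1, Pdk2 and Ppp1r3b Nr2e3-/- replicate 1 is red and replicates 2 and 3 are blue.

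Of the 2 glucose transporters among the members, Slc2a2, the bidirectional transporter of hepatocytes, had by far the more RNA. It made up 96.6% of their summed CPM per kilobase in WT and 95.3% in Nr2e3-/- tumors. Slc2a2 measured 374, 316 and 424 CPM in WT replicates 1 to 3 and 428, 221 and 234 CPM in Nr2e3-/- replicates 1 to 3. Replicates 2 and 3 of the knockout lay below every WT library and replicate 1 above them all, so the groups overlapped (log2 fold change -0.34 ± 0.27 SE, edgeR adjusted p = 0.484). Slc2a1, the ubiquitous transporter, ranged from 7.33 to 8.36 CPM in WT and from 5.73 to 11.5 CPM in Nr2e3-/- tumors.

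Of the genes for trapping glucose inside the cell, Gckr, which encodes the inhibitory regulator of glucose phosphorylation in liver, was the most counted. Gckr stood at 125, 142 and 141 CPM in WT and at 153, 112 and 117 CPM in Nr2e3-/- tumors (log2 fold change -0.10 ± 0.15 SE, edgeR adjusted p = 0.713), again with replicate 1 above and replicates 2 and 3 below all WT libraries. The general hexokinases were scarce. Hk1, the housekeeping form, averaged 5.96 ± 0.481 CPM in WT and 6.50 ± 0.910 in Nr2e3-/- tumors (SD, n = 3 each). Hk2, the insulin-responsive form often raised in tumors, measured 2.53, 3.18 and 2.70 CPM in WT and 2.38, 5.31 and 3.19 CPM in Nr2e3-/- tumors, and Hk3, the form of myeloid cells, 3.53, 5.48 and 4.89 against 2.78, 8.32 and 4.43 CPM. Both were highest in Nr2e3-/- replicate 2 and neither separated the groups. That library also had the highest sum of the macrophage markers found in the table, all 7 of which were detected: 640 CPM, against 248 and 328 CPM in the other Nr2e3-/- libraries and 286 to 365 CPM in WT. Their part in the hexokinase values was not tested.

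Among the 15 enzymes of glycolysis proper, 9 had a log2 fold change above 0 and 6 below, with a median of 0.12, and their summed level was higher in every Nr2e3-/- library (1563 to 1735 CPM) than in every WT library (1458 to 1503 CPM). This sum is weighted toward the most counted genes and does not describe the 15 as a set. The means of Ldha, the most counted, were 457 CPM in WT and 599 CPM in Nr2e3-/- tumors, with overlapping groups. Those of Pklr went down, from 365 to 286 CPM. At an unadjusted p under 0.05, 1 of the 15 was higher (6.67%, against 11.8% of all genes) and 3 were lower (20%, against 9.72%).

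Gpi1 encodes glucose-6-phosphate isomerase, the step between glucose phosphorylation and phosphofructokinase, and lies at 34201327 to 34230336 of chromosome 7, minus strand (RefSeq, GRCm38). It measured 152, 127 and 142 CPM in WT and 207, 200 and 198 CPM in Nr2e3-/- tumors. All 3 knockout libraries sat close together and above all 3 WT libraries, a 1.44-fold difference (log2 fold change 0.52 ± 0.11 SE, unadjusted p = 0.0017, edgeR adjusted p = 0.0963). Of the 50-base windows of its longest coding transcript, 25.3% also occur in transcripts of other genes, so part of its reads may have had more than 1 possible origin.

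Phosphofructokinase, which makes the committing step of glycolysis, is built from liver (Pfkl), muscle (Pfkm) and platelet (Pfkp) subunits. Pfkm, at 98092589 to 98132447 of chromosome 15, plus strand, had the lowest fold change of the 40 members. Its level was 21.7, 21.5 and 23.9 CPM in WT and 14.6, 9.32 and 10.1 CPM in Nr2e3-/- tumors, a 1.97-fold lower mean with no overlap (log2 fold change -0.98 ± 0.18 SE, unadjusted p = 0.00099, edgeR adjusted p = 0.0930). None of its 50-base windows occurs in another gene, although Gm26513 overlaps its locus on the same strand and Senp1 on the opposite one, and whether counting used strand is not given in the sources used here. Pfkl averaged 36.3 ± 3.12 CPM in WT and 39.4 ± 8.73 CPM in Nr2e3-/- tumors, and Pfkp 6.89 ± 1.04 and 6.06 ± 1.24 CPM (SD, n = 3 each), without separation in either.

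The make-up of phosphofructokinase, as read from RNA, separated the genotypes in every library. Pfkm supplied 50.7, 53.8 and 54.4% of the summed CPM per kilobase of the 3 subunit genes in WT and 35.8, 33.4 and 34.8% in Nr2e3-/- tumors. Pfkl supplied 45.6, 41.2 and 42.1% in WT and 60.56, 59.99 and 61.05% in the knockout. By this measure Pfkm led in all 3 WT libraries and Pfkl in all 3 knockout libraries. The lead of Pfkm in WT rests on the lengths used, all annotated exons of each gene (6675 bases for Pfkl, 3340 for Pfkm). In CPM without length, Pfkl was above Pfkm in every WT library (39.0, 32.9 and 37.0 against 21.7, 21.5 and 23.9). The means, 52.9 ± 1.95 and 34.7 ± 1.19% for Pfkm and 43.0 ± 2.30 and 60.5 ± 0.530% for Pfkl, differed by more than the spread between libraries (SD, n = 3 each), and for such a separation the exact permutation test gives its smallest possible p, 0.1. Nr2e3-/- replicate 1 lay with replicates 2 and 3 here. Across the 9 families of isoforms, 3 of 23 shares did not overlap between the genotypes, where 26.8% of all genes tested did not by CPM. Shares of a family add up to the whole, so those of Pfkl and Pfkm are largely a single result. The third was that of Hk2 among the hexokinases (19.4 ± 0.691% in WT and 21.8 ± 0.863% in Nr2e3-/- tumors, SD, n = 3 each). The shares of the liver forms Pklr (97.2 and 96.1%), Slc2a2 and Pck1 (99.7 and 99.8%) overlapped between the groups, and so did that of Ldha (99.2 and 99.6%).

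**Figure D2:**
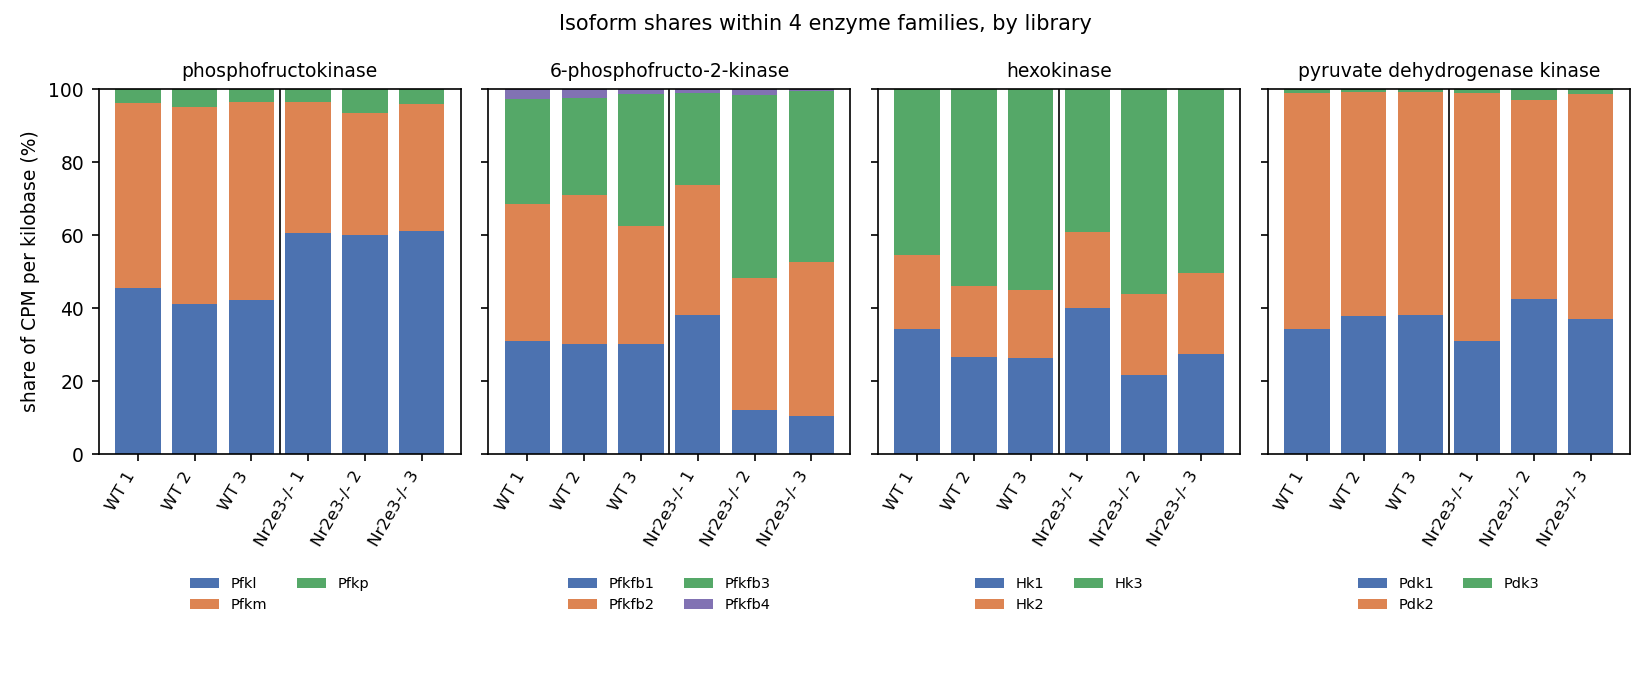
Stacked bars give the share, in percent, of each gene in the summed CPM per kilobase of its enzyme family for each of the 6 libraries, with a line between WT and Nr2e3-/-. The Pfkl share is 59.99 to 61.05% in Nr2e3-/- and 41.2 to 45.6% in WT, and the Pfkfb1 share is 12.1 and 10.6% in Nr2e3-/- replicates 2 and 3 but 38.1% in replicate 1.

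Of the enzymes between phosphofructokinase and pyruvate kinase, Gapdh alone had an unadjusted p under 0.05. Aldoa, the aldolase of most tissues, measured 112, 90.2 and 109 CPM in WT and 108, 140 and 153 CPM in Nr2e3-/- tumors (log2 fold change 0.37 ± 0.16 SE, edgeR adjusted p = 0.239). Tpi1, triosephosphate isomerase, was almost level at 213 ± 10.6 and 220 ± 27.3 CPM, and enolase Eno1 at 77.1 ± 6.31 and 84.0 ± 5.66 CPM (SD, n = 3 each). Pgk1, phosphoglycerate kinase, was the other member of glycolysis whose groups did not overlap upward, but by little: 12.8, 10.9 and 12.3 CPM in WT against 13, 13.3 and 14 CPM (unadjusted p = 0.211). Pgam1, the mutase that follows it, averaged 4.06 ± 0.432 and 4.91 ± 0.545 CPM, and Aldoc, the brain-type aldolase, 16.4 ± 5.66 and 12.9 ± 1.75 CPM.

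Gapdh, glyceraldehyde-3-phosphate dehydrogenase, was counted at only 2.73, 2.74 and 3.75 CPM in WT and 1.32, 1.97 and 1.51 CPM in Nr2e3-/- tumors. The knockout libraries were all lower (log2 fold change -0.92 ± 0.25 SE, unadjusted p = 0.0079, edgeR adjusted p = 0.130), but on 20 to 108 reads per library. For this enzyme 82.5% of the 50-base windows recur in other transcripts, those of 215 pseudogenes among them, and nearly every cell uses this enzyme, so its counts are uncertain. Exact repeats elsewhere also cover 72.2% of the windows of Eno1, 68.0% of Pgk1, 41.5% of Pgam1 and 34.4% of Pkm, and at least 10% in 12 of the 41 members. How reads with several matches were treated is not given in the sources used here, so the levels of these genes are uncertain.

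At the end of the pathway, the groups overlapped in each of the 4 genes. Pklr, the pyruvate kinase of liver and red cells, stood at 377, 335 and 383 CPM in WT and at 337, 281 and 241 CPM in Nr2e3-/- tumors, with a single point of overlap (log2 fold change -0.35 ± 0.15 SE, unadjusted p = 0.0496, edgeR adjusted p = 0.232). Pkm, the pyruvate kinase of most other tissues and of many tumors, averaged 16.3 ± 1.78 and 17.9 ± 3.96 CPM. Ldha, which turns pyruvate into lactate, measured 434, 528 and 408 CPM in WT and 497, 565 and 735 CPM in Nr2e3-/- tumors (log2 fold change 0.39 ± 0.18 SE, edgeR adjusted p = 0.260), highest in replicates 2 and 3 of the knockout but with replicate 1 inside the WT range. Ldhb, the subunit that favours lactate use, was scarce at 1.73 ± 0.597 and 1.03 ± 0.0807 CPM (SD, n = 3 each).

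The 4 bifunctional Pfkfb enzymes set the level of fructose-2,6-bisphosphate and with it the balance of glycolysis and gluconeogenesis. Of these 4 genes, 2 were higher at an unadjusted p under 0.05 (50%, against 11.8% of all genes), and none was lower. Pfkfb3, the form with the strongest kinase over phosphatase activity, lies at 11471430 to 11554071 of chromosome 2, minus strand. It measured 54.7, 42.7 and 66.2 CPM in WT and 67.9, 104 and 114 CPM in Nr2e3-/- tumors. Every knockout library exceeded every WT library, replicate 1 only just, for a 1.75-fold higher mean (log2 fold change 0.81 ± 0.23 SE, unadjusted p = 0.010, edgeR adjusted p = 0.136). Pfkfb2, the heart-type form, measured 68.4, 62.3 and 56.3 CPM in WT and 90.9, 71.9 and 98.5 CPM in Nr2e3-/- tumors (log2 fold change 0.48 ± 0.15 SE, edgeR adjusted p = 0.143). Here replicate 1 lay with the other knockout libraries and replicate 2 was the closest to WT. With upper quartile normalization the groups of Pfkfb2 overlapped (log2 fold change 0.40 ± 0.15 SE, edgeR unadjusted p = 0.0312). Without WT replicate 3 its edgeR unadjusted p was 0.0499. Yod1 overlaps Pfkfb2 on the opposite strand, and 25.1% of the windows of Pfkfb2 are shared with another gene.

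Pfkfb1, the liver form, behaved otherwise. It was even across WT tumors (31.2, 25.6 and 29.3 CPM) and spread 4.07-fold across Nr2e3-/- tumors, at 54.1, 13.3 and 13.7 CPM. Replicate 1 was thus 1.88 times the WT mean and replicates 2 and 3 were 2.13 times below it, and the comparison of all 6 libraries averaged this out (log2 fold change -0.10 ± 0.53 SE, edgeR adjusted p = 0.924). Pfkfb4, the testis form, was scarce, between 1.66 and 3.42 CPM in WT and between 0.811 and 2.38 CPM in Nr2e3-/- tumors.

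The start-site sequences of Gpi1, Pfkfb3 and Pfkm, picked after their values were seen from the members that did not overlap, are shown because the study examines Sp1, a factor that binds the GC box, in connection with Nr2e3. Each is 300 bases from RefSeq (GRCm38.p6), 250 before and 50 after an annotated start, written 5′ to 3′ along the transcript, with capitals marking a GC box (GGGCGG), an E-box (CACGTG), a cAMP response element (TGACGTCA) or a TATA box (TATAAA) on either strand.
Gpi1, chr7:34230287-34230586, minus strand: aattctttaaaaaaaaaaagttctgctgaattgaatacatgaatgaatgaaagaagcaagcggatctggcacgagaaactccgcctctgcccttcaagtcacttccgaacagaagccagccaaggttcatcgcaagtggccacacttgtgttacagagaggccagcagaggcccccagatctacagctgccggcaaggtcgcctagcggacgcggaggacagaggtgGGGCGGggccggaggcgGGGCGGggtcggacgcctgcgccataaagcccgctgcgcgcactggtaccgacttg
Pfkfb3, first of 2 starts shown, chr2:11553880-11554179, minus strand: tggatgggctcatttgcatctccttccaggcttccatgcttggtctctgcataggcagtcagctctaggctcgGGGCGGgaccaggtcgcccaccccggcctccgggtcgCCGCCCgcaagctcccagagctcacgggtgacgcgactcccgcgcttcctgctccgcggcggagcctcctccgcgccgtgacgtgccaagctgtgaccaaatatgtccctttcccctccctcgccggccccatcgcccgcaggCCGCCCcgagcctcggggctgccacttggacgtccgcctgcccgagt
Pfkfb3, second start, chr2:11502041-11502340, minus strand: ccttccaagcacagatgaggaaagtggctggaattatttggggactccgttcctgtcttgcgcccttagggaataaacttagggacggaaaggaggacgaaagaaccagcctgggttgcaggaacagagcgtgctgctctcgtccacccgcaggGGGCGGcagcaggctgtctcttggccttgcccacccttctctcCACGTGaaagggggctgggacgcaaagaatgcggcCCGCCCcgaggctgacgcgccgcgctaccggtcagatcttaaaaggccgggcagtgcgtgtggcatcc
Pfkm, outermost of 4 starts, chr15:98092339-98092638, plus strand: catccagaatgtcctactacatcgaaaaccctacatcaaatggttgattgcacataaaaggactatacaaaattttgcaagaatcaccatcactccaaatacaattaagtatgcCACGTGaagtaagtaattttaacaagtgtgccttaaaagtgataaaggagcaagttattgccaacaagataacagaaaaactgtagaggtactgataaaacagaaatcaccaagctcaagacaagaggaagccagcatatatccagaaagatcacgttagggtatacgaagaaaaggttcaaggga
The Gpi1 window holds 2 GC boxes, the Pfkfb3 windows 3 and 2, with an E-box in the second, and the Pfkm window an E-box alone. The other 3 Pfkm windows hold none of the 4 motifs. Windows were at hand for 39 members, 62 in all, and a GC box occurred in 30 of them (48.4%), an E-box in 8 (12.9%), a TATA box in 5 (8.06%) and a cAMP response element in 1 (1.61%). Over all 32851 windows of the genome the shares were 35.7, 7.15, 13.6 and 1.79%. These matches describe the letters and not the binding of a factor.

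The gluconeogenesis group also takes in the carrier Slc37a4 and the coactivator Ppargc1a. Of its 7 tested genes, 5 had a log2 fold change above 0 (median 0.18), and none of those 5 passed at an unadjusted p under 0.05. Those 5 were abundant, unlike Pck2 and Ppargc1a. Pck1 measured 1294, 1109 and 2551 CPM in WT and 2863, 1427 and 2228 CPM in Nr2e3-/- tumors (log2 fold change 0.40 ± 0.37 SE, edgeR adjusted p = 0.551). The 2.58-fold range over the 6 libraries ran through both groups, with WT replicate 3 and Nr2e3-/- replicate 1 at the top. G6pc, the glucose-6-phosphatase that releases free glucose, ranged more widely still, at 136, 69.0 and 201 CPM against 269, 86.6 and 103 CPM (log2 fold change 0.18 ± 0.52 SE, edgeR adjusted p = 0.861). The same pair of libraries was highest for it.

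The steadier genes of the route showed the same absence of separation at closer range. Fbp1 averaged 735 ± 75.3 CPM in WT and 836 ± 77.0 CPM in Nr2e3-/- tumors, Pcx, which feeds pyruvate into the route, 518 ± 24.8 and 588 ± 54.0 CPM, and Slc37a4, the carrier that brings glucose-6-phosphate to G6pc, 186 ± 16.1 and 235 ± 67.9 CPM (SD, n = 3 each). Pck2, the mitochondrial form of PEP carboxykinase, was level in WT (8.32 to 8.60 CPM) and varied in the knockout (4.24, 8.80 and 6.92 CPM). Fbp2, left out of the test for low counts, had 3 to 6 reads in WT and 5 to 15 in Nr2e3-/- libraries, or 0.104 to 0.203 against 0.331 to 0.649 CPM, without overlap.

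Ppargc1a, the coactivator that drives gluconeogenic genes in fasting, went the other way. It measured 7.99, 8.19 and 14.1 CPM in WT and 7.41, 6.57 and 4.6 CPM in Nr2e3-/- tumors (log2 fold change -0.71 ± 0.29 SE, unadjusted p = 0.042, edgeR adjusted p = 0.216). Every knockout library was lower than every WT library, but the gap between WT replicate 1 and Nr2e3-/- replicate 1 was narrow and WT replicate 3 was well above the rest. Without WT replicate 3 the log2 fold change was -0.39 ± 0.25 SE (edgeR unadjusted p = 0.165), and the unadjusted p was also above 0.05 without Nr2e3-/- replicate 2 (0.0641) or 3 (0.130) and with the replicate number as a block (0.0875).

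The pyruvate dehydrogenase kinases, which hold pyruvate back from oxidation, did not separate the groups. Pdk1 measured 82.6, 83.6 and 129 CPM in WT and 99.6, 56.7 and 63.3 CPM in Nr2e3-/- tumors (log2 fold change -0.43 ± 0.26 SE, edgeR adjusted p = 0.373), and Pdk2, the leading form per kilobase, 63.5, 55.3 and 84.0 against 88.8, 29.7 and 42.9 CPM. In both, replicates 2 and 3 of the knockout were below all WT libraries and replicate 1 was not. Pdk3 was near 1 CPM in both groups (0.836 ± 0.256 and 1.12 ± 0.314 CPM, SD, n = 3 each).

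In glycogen metabolism, Gys2, the glycogen synthase of liver at 142422612 to 142473130 of chromosome 6, minus strand, was the member that separated the genotypes. Its level was 388, 328 and 450 CPM in WT and 269, 290 and 269 CPM in Nr2e3-/- tumors. The knockout libraries were tightly grouped and all below WT, 1.41-fold lower on average (log2 fold change -0.49 ± 0.14 SE, unadjusted p = 0.0091, edgeR adjusted p = 0.133), replicate 1 included, and none of its 50-base windows recurs in another gene. Pygl, the liver phosphorylase that breaks glycogen down, stood at 457, 433 and 515 CPM in WT and 611, 450 and 507 CPM in Nr2e3-/- tumors (log2 fold change 0.16 ± 0.15 SE, edgeR adjusted p = 0.551), and the branching enzyme Gbe1 at 205 ± 18.7 and 224 ± 21.6 CPM. The subunits that bring protein phosphatase 1 to glycogen varied most of all. Ppp1r3b, the main one in liver, measured 259, 264 and 144 CPM in WT and 300, 96.5 and 93.4 CPM in Nr2e3-/- tumors, and Ppp1r3c 31.3, 37.5 and 17 against 57.9, 4.83 and 20.2 CPM, a 12-fold range over the 6 libraries. In both the highest library was Nr2e3-/- replicate 1 and the groups overlapped.

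A list of 23 further genes of glycogen metabolism was followed beside these, and 22 were tested. None was higher at an unadjusted p under 0.05 and 9 were lower (40.9%, against 9.72% of all genes), all 9 without overlap, although the median of the 22 was -0.08 and none passed at an adjusted p under 0.05 in edgeR. DESeq2 and limma-voom each called 5 of them lower and none higher at an adjusted p under 0.05, where they called 5.81 and 17.4% of all genes in either direction. At an unadjusted p under 0.05, 2 were higher with limma-voom, 2 without Nr2e3-/- replicate 1 and 1 without WT replicate 1. Without Nr2e3-/- replicate 1, 1 was higher and 5 were lower at an edgeR adjusted p under 0.05, where 21.8% of all genes passed. The count of 9 was 5 without WT replicate 2, WT replicate 3, Nr2e3-/- replicate 2 or Nr2e3-/- replicate 3, and also 5 with the replicate number as a block, fits in which 12.2 to 19% of all genes passed in either direction. They included Pygb and Pygm, the brain and muscle phosphorylases, with Phka2, Epm2a and Ppp1r3g. Phka2, the liver regulatory subunit of phosphorylase kinase, measured 28.5, 24.2 and 29.3 CPM in WT and 21.6, 16.5 and 16.7 CPM in Nr2e3-/- tumors (log2 fold change -0.58 ± 0.15 SE, unadjusted p = 0.0057, edgeR adjusted p = 0.123). Epm2a, laforin, the phosphatase of glycogen, was scarce and lower, at 1.38, 1.12 and 1.63 against 0.662, 0.371 and 0.487 CPM (log2 fold change -1.47 ± 0.33 SE, edgeR adjusted p = 0.102). Ppp1r3g, another targeting subunit, measured 3.07, 1.18 and 8.84 CPM in WT and 0.861, 0.705 and 0.649 CPM in Nr2e3-/- tumors (log2 fold change -2.57 ± 0.73 SE, edgeR adjusted p = 0.133).

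**Figure D3:**
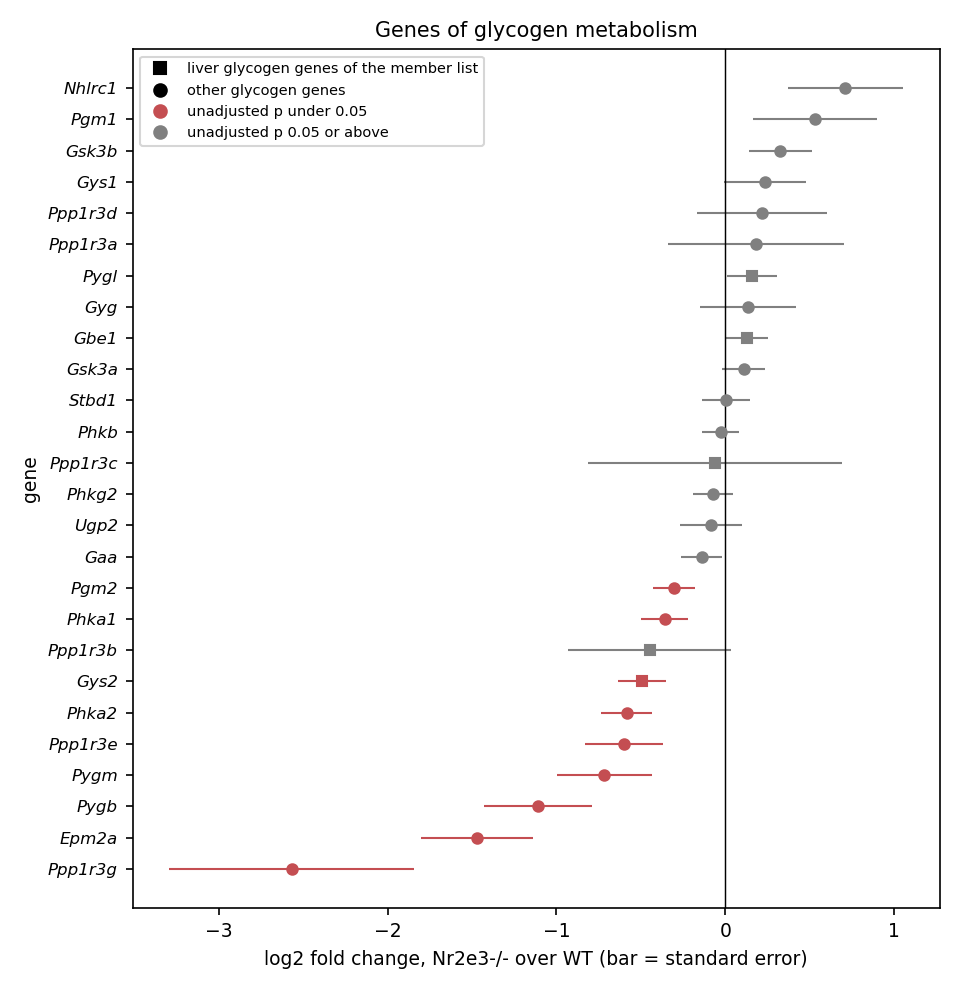
Points give the log2 fold change, Nr2e3-/- over WT, of genes of glycogen metabolism and bars the standard error; squares are the 5 members and circles the tested genes of the wider list, of which 1 is not drawn. Red marks an unadjusted p under 0.05, and all red points shown, Gys2 among them, lie below 0.

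The place of Nr2e3-/- replicate 1 differed from member to member. Among the 40 tested, it was the highest of the 6 libraries in 16 (40%, against 16.9% of all genes) and the lowest in 5 (12.5%, against 17.2%). In 5 members, Slc2a2, Gckr, Pfkfb1, Pdk2 and Ppp1r3b, it lay above all WT libraries while replicates 2 and 3 lay below them all (12.5%, against 5.61% of all genes), and in 1, Hk2, the reverse held. The spread within the knockout was larger than within WT, with a median coefficient of variation of 21.4% over the members against 11.2% in WT, as it was over all genes (18.0 and 9.80%). It was larger in the knockout for 30 of 40 members (75%, against 76.1% of all genes), and Gpi1 (2.23 against 8.96% in WT) and Gys2 (4.44 against 15.7%) were exceptions.

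Without that library, 10 of 41 members had an edgeR adjusted p under 0.05 (24.4%, against 21.8% of 13840 genes), 4 higher and 6 lower. The higher ones were Gpi1, Aldoa, Pfkfb3 and Fbp2, and the lower ones Slc2a2, Pfkm, Pklr, Pfkfb1, Pdk2 and Ppp1r3b. Fbp2, untested with all 6 libraries, had 15 and 12 reads in Nr2e3-/- replicates 2 and 3 and 3 to 6 in WT. It passed the filter on counts only through the group where it was high, so its call is no separate support for a difference. Pfkm then had a log2 fold change of -1.20 ± 0.11 SE (edgeR adjusted p = 0.00278) and Pfkfb3 of 1.01 ± 0.18 SE (edgeR adjusted p = 0.0138). Pfkfb1 moved from -0.10 to -1.08 ± 0.12 SE (edgeR adjusted p = 0.00417), Ppp1r3b from -0.45 to -1.22 ± 0.27 SE (edgeR adjusted p = 0.0250) and Slc2a2 from -0.34 to -0.70 ± 0.15 SE (edgeR adjusted p = 0.0225). In each of these genes the library left out lay above all WT libraries, so leaving it out had to lower the fold change. That library was singled out after its values were seen. The p-values of this fit are therefore no separate support for a difference. The sign of G6pc turned, from 0.18 to -0.50 ± 0.40 SE (edgeR adjusted p = 0.396). Gys2 kept its size, -0.47 ± 0.16 SE, but did not pass (edgeR adjusted p = 0.0783). Replicates 2 and 3 also had more counts of neutrophil markers, a sum of 24.4 and 15 CPM over the 7 found in the table, against 2.58 CPM in replicate 1 and 1.77 to 3.38 CPM in WT, of which Mpo was at 0 in all 3 WT libraries, and of bile duct markers, 439 and 196 CPM against 82.9 CPM and 68.8 to 128 CPM in WT, of which Spp1 made up 410 and 171 CPM in replicates 2 and 3. The part of these cells in the values above was not tested.

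**Figure D4:**
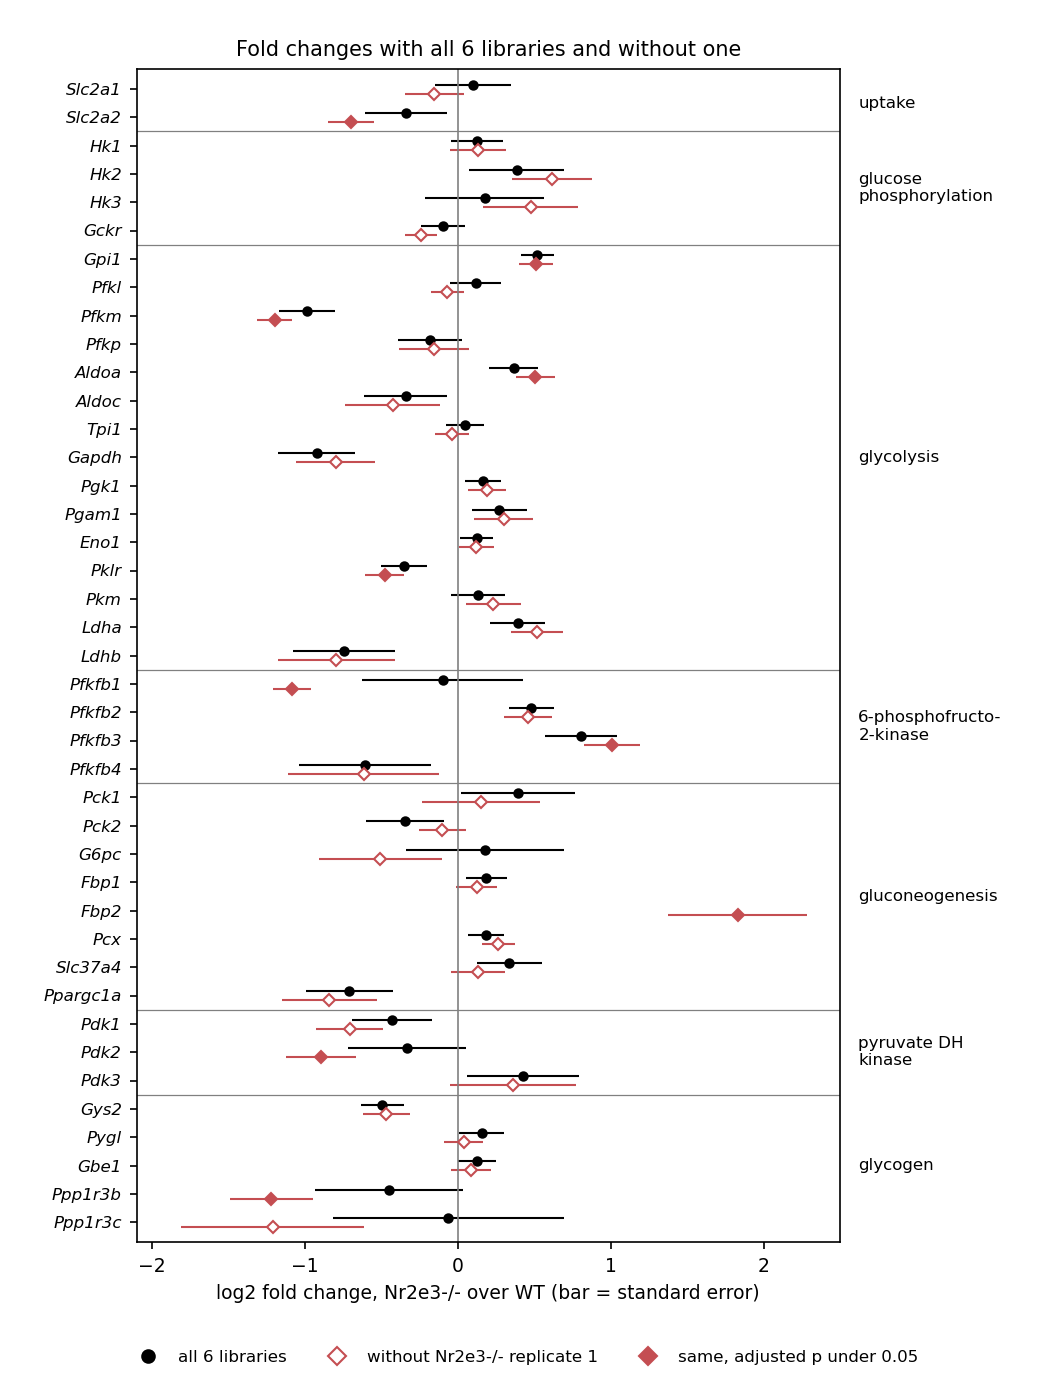
Log2 fold change, Nr2e3-/- over WT, of each member with its standard error, from all 6 libraries (black) and without Nr2e3-/- replicate 1 (red, filled at an adjusted p under 0.05). No black point passes, 10 red points are filled, and Pfkm, Pfkfb1, Ppp1r3b and Ppp1r3c move to below -1.

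**Figure D5:**
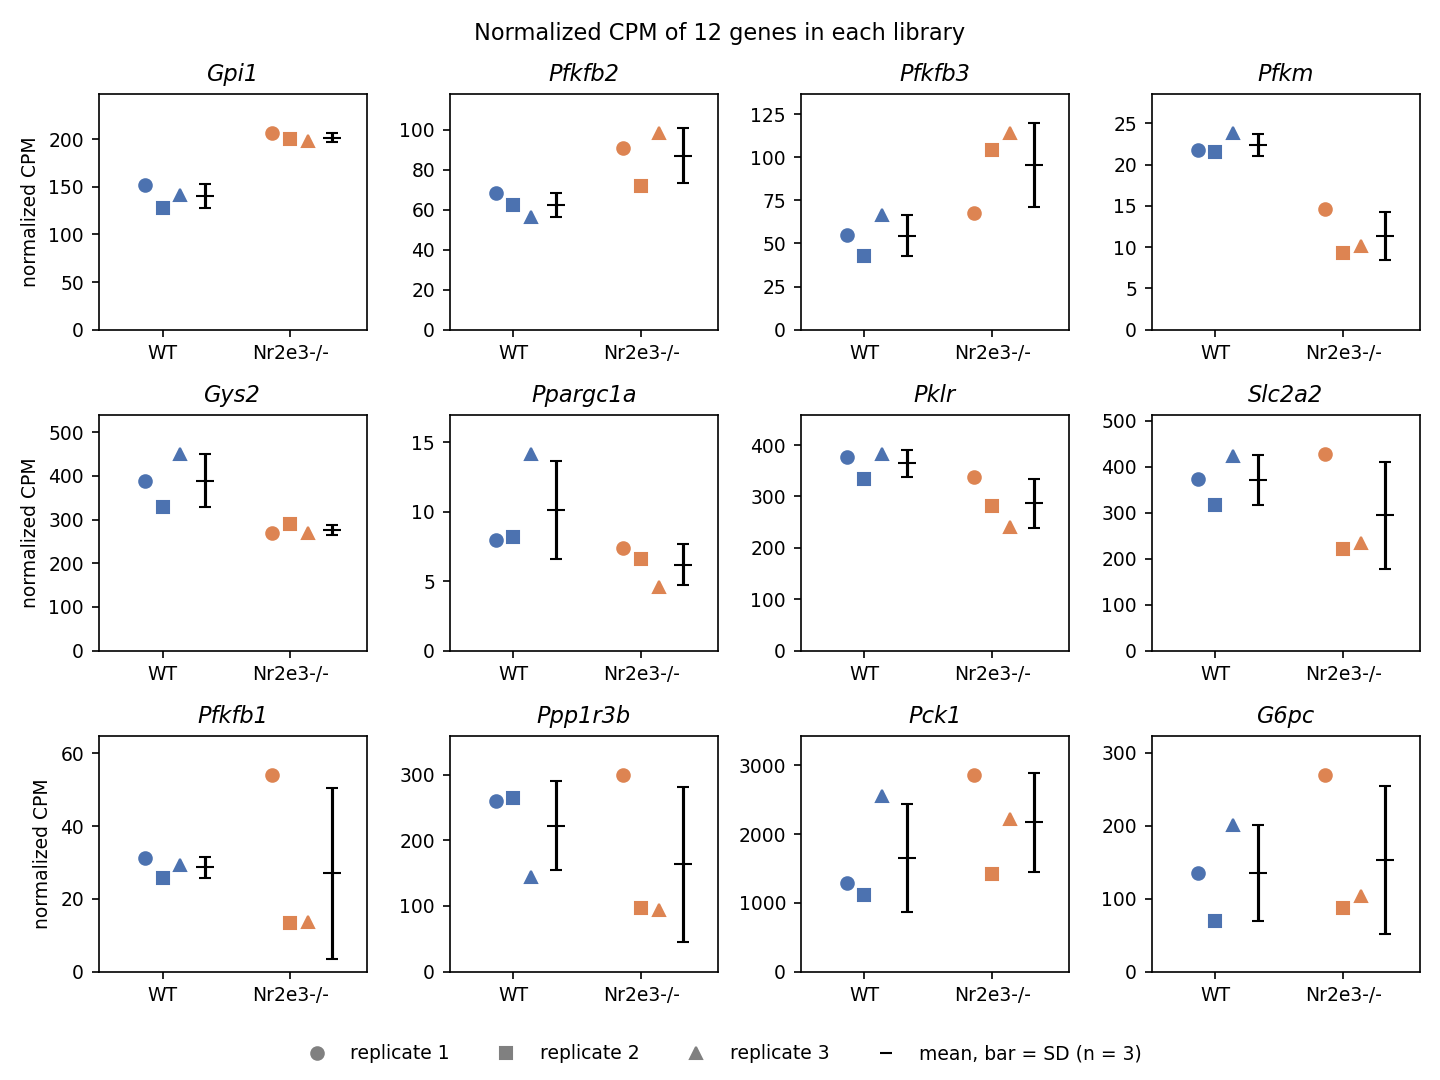
Normalized CPM of 12 members in each library (circle, square and triangle for replicates 1, 2 and 3) with the mean and SD of each genotype (n = 3). Gpi1, Pfkfb2, Pfkfb3, Pfkm, Gys2 and Ppargc1a do not overlap between the genotypes; in Slc2a2, Pfkfb1 and Ppp1r3b Nr2e3-/- replicate 1 lies above and the other 2 below every WT library, and Pck1 and G6pc spread through both groups.

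Other isoforms and side enzymes of the pathway, 12 of 15 tested, held 3 genes higher (25%, against 11.8%) and 1 lower (8.33%, against 9.72%) at an unadjusted p under 0.05, and none at an adjusted p under 0.05 in edgeR. DESeq2, limma-voom and edgeR without Nr2e3-/- replicate 1 each called 1 higher and 1 lower at an adjusted p under 0.05, of 14, 12 and 12 tested. Over all genes these fits called 5.81, 17.4 and 21.8% in either direction. Ldhd, the dehydrogenase of D-lactate, measured 150, 137 and 143 CPM in WT and 187, 188 and 206 CPM in Nr2e3-/- tumors (log2 fold change 0.43 ± 0.10 SE, edgeR adjusted p = 0.109). Slc2a9, a urate transporter of the glucose transporter family, measured 45.4, 52.3 and 54.0 against 41.9, 30.6 and 32.1 CPM (log2 fold change -0.54 ± 0.15 SE, edgeR adjusted p = 0.130). Slc2a3, the high-affinity transporter of neurons and white cells, stayed at or under 1.49 CPM in every library.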

How the data were processed

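RNA was sequenced from 3 WT and 3 Nr2e3-/- liver tumors. Per the labels and the methods, the authors made TruSeq libraries, aligned single-end reads to mm10 (GRCm38) with TopHat and counted them per gene with featureCounts, and the deposited values used here are these raw counts, without normalization. The gene annotation, strand setting and handling of reads with several matches are not given in the sources used here. A table of counts scaled by DESeq size factors and a table of the authors' own fold changes and p-values were not used.

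Groups follow the genotype named in each sample's title, and the dose, age and time point are from the study's text. Depth was 15376261 to 28690279 counts per library, so that 3 counts, the limit that a count of 0 allows, are 0.101 to 0.199 CPM (counting error only). Counts were filtered with filterByExpr (minimum count 10, minimum total 15), scaled by TMM, and compared by edgeR 4.0.16 (R 4.3.3) with its two-sided quasi-likelihood F test, with Benjamini-Hochberg adjustment over all 13572 genes. CPM values are TMM-scaled, and the heat map adds 0.5. Exon lengths, overlapping genes and shared 50-base windows came from GENCODE vM21, and gene positions and start-site windows from RefSeq, in which 2 members had no window. The procedure was tested on simulated data.

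The members, role groups and gene lists were chosen with earlier results of these data known, and the isoform shares, the description of Nr2e3-/- replicate 1 and the start sites shown were chosen after values had been seen. Values in every library were given for members with an unadjusted p under 0.05 and groups that do not overlap, for the most counted member of each role, and for others picked after their values were seen. The values of 1 gene of the wider glycogen list, which entered its counts, are not reported here. Genes of wider lists were named by the same p, at most 3 per list, with exceptions picked later. The labels do not say that libraries with the same number belong together, and deviations from the group means correlated at -0.0766, 0.221 and 0.0234 for replicates 1, 2 and 3, so no pairing was assumed. Alternatives were RLE and upper quartile normalization, DESeq2 1.42.0, limma-voom (limma 3.58.1) with sample quality weights, 2 other filters on low counts, the replicate number as a block, and leaving out each library. The p-values measure the spread between these libraries. The study's methods count 3 mice in each group, while the labels do not tie libraries to mice.

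Marker lists, given as summed CPM, were for hepatocytes, periportal and pericentral hepatocytes, macrophages, neutrophils, lymphocytes, endothelium, stellate cells and fibroblasts, bile duct, red cells, skeletal muscle, acinar pancreas, adipocytes and proliferation.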

Additional observations from a re-analysis of the deposited data

How the results depend on the processing

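The count of members with an adjusted p under 0.05 stayed at 0 under RLE and upper quartile normalization, both other filters and the replicate block, and was 4 with DESeq2, 6 with limma-voom and 0 to 10 when a library was left out, where only the fit without Nr2e3-/- replicate 1 made calls. Over all genes the count was 13, 1093 with DESeq2, 2360 with limma-voom, 70 with no filter beyond 1 count, 0 with the replicate block and 3022 without Nr2e3-/- replicate 1. Members higher at an unadjusted p under 0.05 numbered 3, 6 with DESeq2, 6 with limma-voom, 5 with no filter beyond 1 count and 3 to 7 with a library left out. Those lower numbered 5, 9 with limma-voom, 3 with the replicate block and 3 to 10 with a library left out. Members without overlap numbered 8, and 9 to 22 with a library left out, where fewer libraries overlap less. The median log2 fold change was 0.12, 0.021 with limma-voom and -0.036 to 0.16 with a library left out, below 0 only without Nr2e3-/- replicate 1. The block moved no other count of members by over 1.5 times and left the median at 0.082. The numbers do not pair the libraries, since WT replicates 1 and 3 correlated best with another number. Of 520 values of single members, 484 kept direction and side of the threshold, 19 passed it and 17 reversed, none of them called. Tpi1 reversed to -0.035 with upper quartile, and G6pc to -0.060 and Slc2a1 to -0.22 with limma-voom. With a library left out, Hk2 ran from -0.0035 to 0.62, Hk3 from -0.35 to 0.48, Pfkl from -0.067 to 0.23, Pfkfb1 from -1.08 to 0.24, Tpi1 from -0.04 to 0.14, Pkm from -0.065 to 0.23, G6pc from -0.50 to 0.58, Slc2a1 from -0.15 to 0.32 and Ppp1r3c from -1.21 to 0.45. The cause of these changes was not tested.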

Other observations

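Around the core pathway, the list of hormone and nutrient control held 7 of 22 tested genes at an unadjusted p under 0.05 (31.8%, against 21.5% of all genes), 4 higher and 3 lower, and 0 at an adjusted p under 0.05 in edgeR, while DESeq2 called 3 higher and 2 lower (5.81% of all genes in either direction) and limma-voom 4 and 4 (17.4% of all genes). Insr, the insulin receptor, measured 218, 204 and 215 CPM in WT and 155, 158 and 144 CPM in Nr2e3-/- tumors (log2 fold change -0.48 ± 0.10 SE, edgeR adjusted p = 0.0963). Tat, tyrosine aminotransferase, a liver gene that glucocorticoids and fasting raise, measured 755, 570 and 726 against 2451, 874 and 1736 CPM (log2 fold change 1.30 ± 0.35 SE, edgeR adjusted p = 0.127), with no overlap but a wide spread in the knockout. Cebpb, a transcription factor of the acute phase and of gluconeogenesis, stood at 80.3, 91.6 and 75.2 against 96.9, 227 and 184 CPM (log2 fold change 1.04 ± 0.29 SE, edgeR adjusted p = 0.131).

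On the way from pyruvate, 3 of 19 tested genes were higher (15.8%, against 11.8% of all genes) and 2 lower (10.5%, against 9.72%) at an unadjusted p under 0.05. Slc16a7, a high-affinity carrier of pyruvate and lactate, measured 62.4, 85.6 and 67.7 CPM in WT and 47.3, 39.4 and 34.7 CPM in Nr2e3-/- tumors (log2 fold change -0.83 ± 0.17 SE, edgeR adjusted p = 0.0936). Parts of the pyruvate dehydrogenase complex differed in direction: Pdhb was higher in every knockout library (91.8, 81.9 and 94.3 against 125, 109 and 121 CPM, log2 fold change 0.40 ± 0.11 SE) and Dlat lower (69.5, 69.7 and 91.3 against 62.8, 39.0 and 41.9 CPM, log2 fold change -0.68 ± 0.21 SE). In the pentose phosphate list, 1 of 8 tested genes was higher (12.5%, against 11.8% of all genes) and 0 lower at an unadjusted p under 0.05: H6pd, the enzyme of the endoplasmic reticulum, at 533, 513 and 518 against 594, 836 and 1003 CPM. Of 13 genes for fructose, galactose and glycerol, 1 was higher (7.69%) and 1 lower (7.69%) at an unadjusted p under 0.05: Galk1, galactokinase, was lower in every knockout library (51.5, 52.3 and 58.3 against 37.8, 37.3 and 41.0 CPM, edgeR adjusted p = 0.0984) and Dak, the kinase of dihydroxyacetone and glyceraldehyde, higher (628, 535 and 558 against 694, 751 and 726 CPM). Of 11 genes of the hypoxia response, 0 were higher and 1 lower (9.09%, against 9.72% of all genes) at an unadjusted p under 0.05: Vegfa, at 126, 134 and 147 against 112, 78.3 and 77.8 CPM. None of these 4 lists had a gene at an edgeR adjusted p under 0.05 with all 6 libraries. By DESeq2 and limma-voom the calls at an adjusted p under 0.05, higher and lower, were 1 and 1 against 3 and 2 for the pyruvate list, 1 and 0 by both for pentose phosphate, 0 and 1 by both for fructose, galactose and glycerol, and 0 and 1 against 0 and 2 for hypoxia. Over all genes tested, DESeq2 called 5.81% and limma-voom 17.4% in either direction.

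Without Nr2e3-/- replicate 1, where 21.8% of all genes had an edgeR adjusted p under 0.05, the calls were 3 higher and 5 lower of 22 for hormone and nutrient control, 2 higher and 3 lower of 19 for the pyruvate list, 1 higher of 8 for pentose phosphate, 2 lower of 13 for fructose, galactose and glycerol, and 1 higher and 2 lower of 11 for hypoxia.

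Of the other marker sums, periportal hepatocyte genes ranged from 3827 to 4359 CPM in WT and 3589 to 5012 CPM in Nr2e3-/- tumors, pericentral ones from 8348 to 10813 and 6572 to 9845 CPM, lymphocyte genes from 3.69 to 10.3 and 2.70 to 6.31 CPM, endothelial genes from 342 to 356 and 300 to 360 CPM, and stellate cell and fibroblast genes from 361 to 447 and 223 to 405 CPM. Adipocyte genes ranged from 29.4 to 50.2 and 13.1 to 63.4 CPM, proliferation genes from 23.0 to 34.1 and 18.5 to 54.4 CPM, and acinar pancreas genes reached 0.115 CPM at most. Red cell genes, at 142 to 202 CPM in WT and 229 to 322 CPM in Nr2e3-/- tumors, were the marker sum whose groups did not overlap.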
